A study of Homo sapiens with 6 samples.

Results

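The genes described here are 50 that build the protein-making side of the endoplasmic reticulum (ER): chaperones, disulfide isomerases, the translocon, signal peptidase, and the machinery of ER-associated degradation (ERAD). They were picked by gene name out of 58735 genes in the deposited count table, and all 50 were found there. They were sorted into 8 role groups, which are taken up below from the chaperones to the signal peptidase.

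A secreted or membrane protein enters the ER through the SEC61 channel, guided by the signal recognition particle and its receptor, and loses its signal peptide to signal peptidase on the way in. Inside, the Hsp70 chaperone BiP and the lectins calnexin and calreticulin hold the chain while disulfide isomerases join its cysteines, and chains that fail to fold are read by lectins, passed back through the membrane and destroyed by the proteasome. When unfolded chains build up, the sensors IRE1, PERK and ATF6 start the unfolded protein response, which raises many of these genes. Hepatocytes secrete most plasma proteins and lipoproteins, and so carry a large ER. Saturated fatty acids such as palmitic acid can engage the sensors of the unfolded protein response in liver cells.

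Polyadenylated RNA was sequenced from HepaRG cells, a human line of bipotent liver progenitors that DMSO drives towards hepatocyte-like and biliary-like cells. All 6 libraries came from cells differentiated with 1.8% DMSO, transfected with siRNA for 48 h and then loaded for 24 h with a mixture of 2 fatty acids, 800 µM oleic and 400 µM palmitic. The 3 libraries labelled PTPF and the 3 labelled STATF are the groups compared. The series names siRNAs against PTPRD, a receptor tyrosine phosphatase, and against STAT3, a transcription factor of cytokine signalling. The labels do not spell out the group names, so the libraries are called by label. No library of cells with control siRNA, or of cells without fatty acids, was analysed here, so every difference is between the 2 labels and neither can be called a change from a baseline. Whether replicates came from separate cultures is not stated, and p-values therefore reflect the scatter of these libraries alone, which may be technical.

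Counted reads per library numbered 33225627 to 40796767. STAT3 stood at 436, 437 and 457 CPM in the libraries labelled PTPF, against 114, 132 and 113 CPM in those labelled STATF, a log2 fold change of 1.89 ± 0.06 (SE, adjusted p = 2.47e-18, edgeR). PTPRD stood at 10.04, 12.8 and 11.7 CPM under PTPF, against 11.2, 12.2 and 11.1 CPM under STATF, and did not separate the labels (log2 fold change 0.00, interval -0.19 to 0.19). CPM are read counts brought to a common library size, with TMM factors computed here, and a log2 fold change above 0 means higher under PTPF. Mitochondrial genes took 17.6 to 18.5% of counts under PTPF and 18.7 to 19.5% under STATF.

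Most of the ER genes were higher in the libraries labelled PTPF. Of the 50, 49 passed the filter on low counts, 39 rose, 1 fell and 9 did not pass the test (edgeR's quasi-likelihood test, Benjamini-Hochberg adjusted p under 0.05 over all 17844 genes tested). Over all genes tested, 21.6% were called, 10.1% higher and 11.6% lower. These shares are the background for each count of called genes given below. The groups did not overlap for 40 of the ER genes with PTPF higher and for 1 with PTPF lower, where 17.3% and 18.4% of all genes tested, 35.7% together, did so. The median log2 fold change of the 49 was 0.32, or 1.248-fold, in a range of -0.18 to 0.70, while that of all genes tested was 0.00. The changes were small: 4 genes passed 1.5-fold, namely DNAJB9, HSPA13, CRELD2 and SSR1. In bulk RNA, fewer cells of a type and less RNA per cell cannot be told apart.

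**Figure D1:**
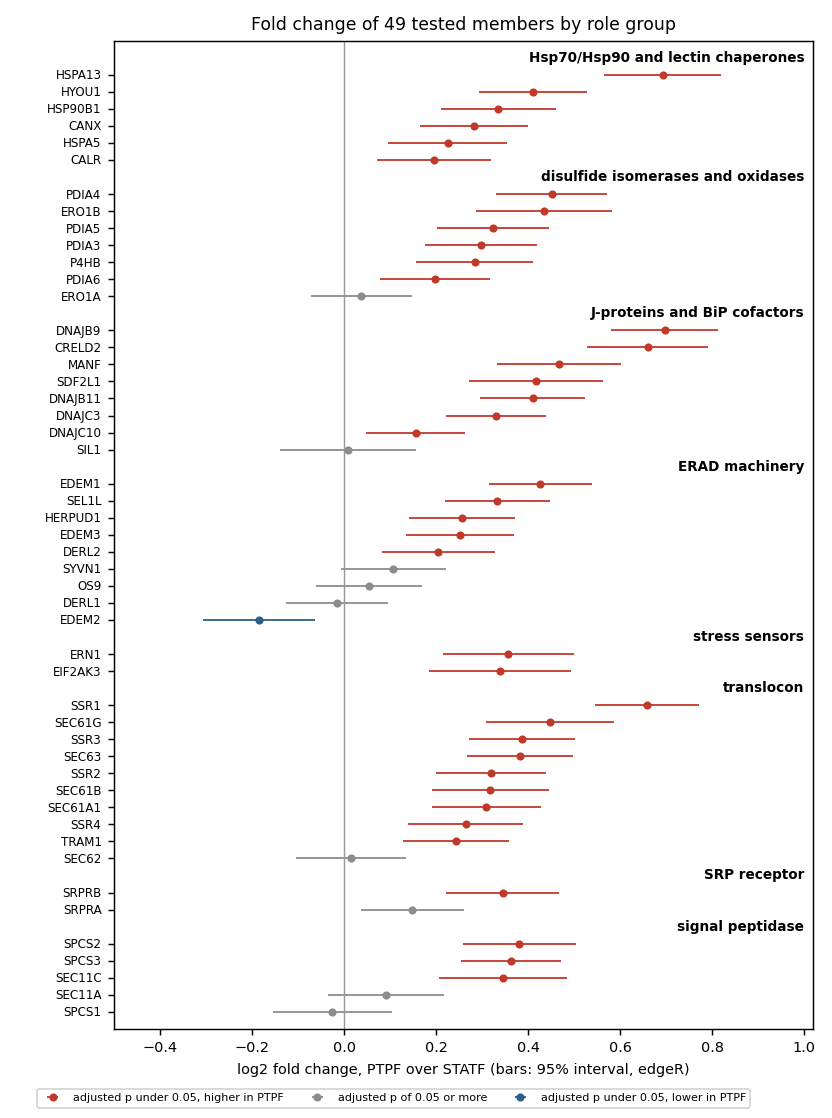
Log2 fold change of PTPF over STATF for the 49 tested ER genes, grouped by role; bars are 95% intervals from edgeR and colour gives the call. Points lie right of 0 for 46 genes, DNAJB9 and HSPA13 lie farthest right at 0.70 and 0.69, and EDEM2 is the 1 gene called lower, at -0.18.

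Scaled by library totals alone, the median log2 fold change of all genes moved to -0.06 and that of the ER genes to 0.25, and 35 of the ER genes were called higher. The higher genes were then 28.1% of all calls, against 46.6% with TMM scaling. Within a group, replicate 1 of PTPF held the highest value for 24 of the 39 genes that rose. Without that library the median of the 49 was 0.28.

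**Figure D2:**
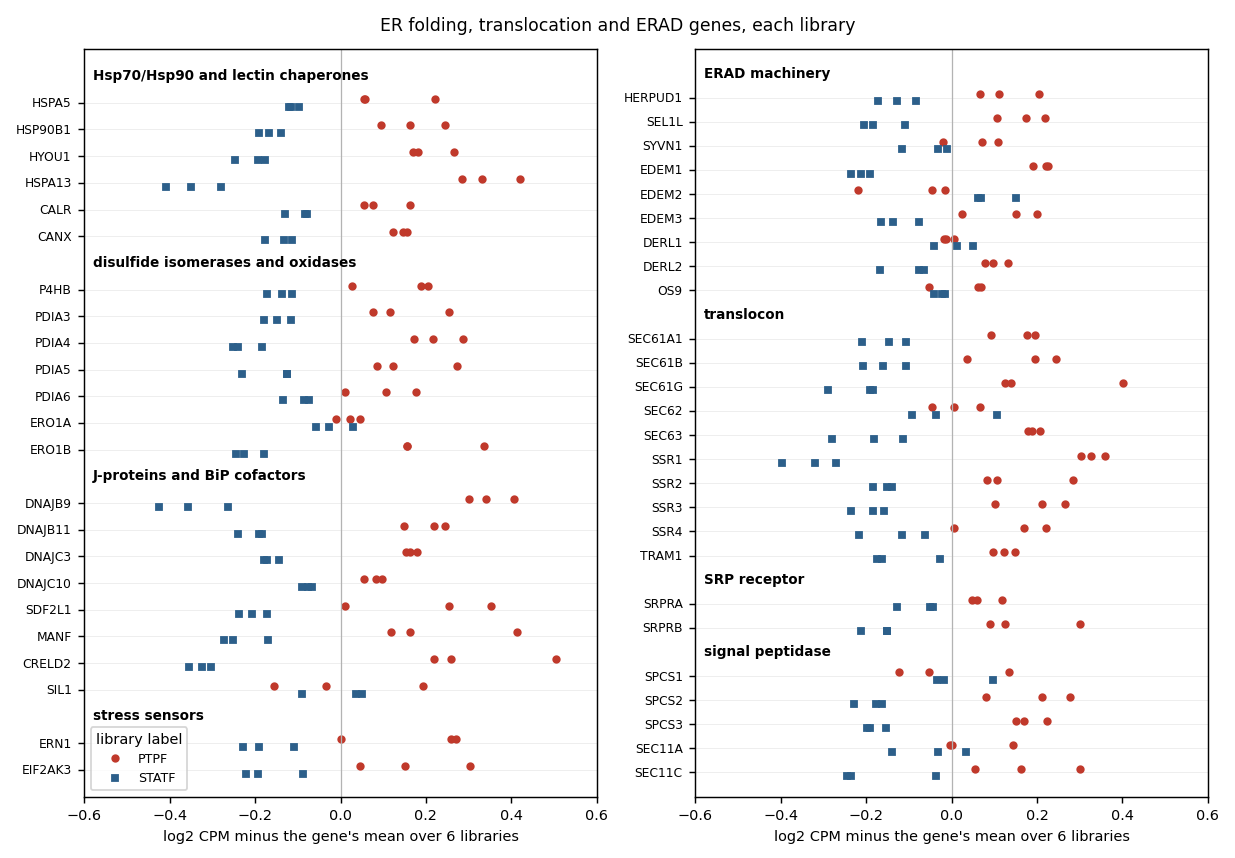
Each library's log2 CPM for each tested ER gene, minus that gene's mean over the 6 libraries, with PTPF as circles and STATF as squares. The circles lie right of every square for 40 genes, and left of every square for EDEM2.

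Promoter sequences were searched because many of these genes are textbook targets of ER stress factors, which bind short elements near the start site. RefSeq promoters of the GRCh38.p14 build, running from 250 bases before to 50 bases after the start, were matched for 38 of the 50 genes out of 35116 promoters, and both strands were read. The ER stress response element, CCAAT and CCACG separated by any 9 bases, was found in 27 of all promoters (0.0769%) and in 5 of the 38: HSPA5, HSP90B1, CALR, ERO1B and CRELD2. Its letters include a CCAAT box, the site of the factor NF-Y, and the CCACG part is the site of ATF6. Shown are the stretches that hold the element, written 5′ to 3′ on the gene's strand, with CCAAT and CCACG, or CGTGG and ATTGG where the element runs the other way, in capitals. For HSPA5, whose promoter is a classic model of this response, all 250 bases before the start are given. Only exact matches were counted and set in capitals, so copies that differ in a letter stay in lower case.
HSPA5 (chr9:125241344-125241593, minus strand): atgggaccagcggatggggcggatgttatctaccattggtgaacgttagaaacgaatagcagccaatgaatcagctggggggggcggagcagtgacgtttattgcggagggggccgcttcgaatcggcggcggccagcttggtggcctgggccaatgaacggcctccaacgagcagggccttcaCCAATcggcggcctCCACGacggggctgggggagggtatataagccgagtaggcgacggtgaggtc
HSP90B1 (chr12:103930206-103930349, plus strand): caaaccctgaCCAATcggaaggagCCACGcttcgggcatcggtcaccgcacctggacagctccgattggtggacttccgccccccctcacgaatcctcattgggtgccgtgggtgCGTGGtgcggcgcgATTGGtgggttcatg
CALR (chr19:12938374-12938412, plus strand): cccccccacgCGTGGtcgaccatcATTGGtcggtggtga
ERO1B (chr1:236282173-236282208, minus strand): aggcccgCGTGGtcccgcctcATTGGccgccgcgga
CRELD2 (chr22:49918544-49918582, plus strand): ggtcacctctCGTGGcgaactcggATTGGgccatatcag
All 5 of these genes rose, by 0.20 to 0.66 on the log2 scale. HSP90B1 holds the element in both directions within its window.

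The second form of the element, ATTGG and CCACG separated by any 1 base, also includes a CCAAT box on its other strand. It was found in 19 of all promoters (0.0541%) and in 3 of the 38, HYOU1, SDF2L1 and HERPUD1, shown with both parts in capitals.
HYOU1 (chr11:119057264-119057400, minus strand): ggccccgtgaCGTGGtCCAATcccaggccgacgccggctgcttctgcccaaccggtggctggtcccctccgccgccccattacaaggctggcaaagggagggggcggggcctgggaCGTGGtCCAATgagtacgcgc
SDF2L1 (chr22:21642104-21642134, plus strand): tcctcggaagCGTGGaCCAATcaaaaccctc
HERPUD1 (chr16:56932015-56932045, plus strand): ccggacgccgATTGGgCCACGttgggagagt
The 3 genes rose by 0.41, 0.42 and 0.26 on the log2 scale. HYOU1 holds this form at 2 places, and a match to the unfolded protein response element, TGACGTGG, overlaps the one farther from the start. Both forms together marked 8 of the 38 genes, and all 8 were called higher. The median log2 fold change was 0.33 for the 5 genes with the first form and 0.33 for the 33 matched genes without it, of which 26 were called higher. For the second form the medians were 0.41 with it and 0.33 without it, and 28 of the 35 without it were called higher. The 33 include the 3 genes with the second form, and the 35 include the 5 genes with the first. Genes with either form were thus not set against genes with neither, and these differences were not tested. Over all genes tested whose promoter holds the first form, 7 of 13 were called higher and 2 lower. For the second form 4 of 9 were called higher and none lower. These counts include the 5 and 3 ER genes named above, so they are not separate from the ER gene result. Of all genes tested, 10.1% were called higher. A match is a description of letters, and says nothing of binding in these cells.

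The other motifs were spread more widely. TGACGTGG was found in 0.729% of all promoters and in 3 of the 38, HYOU1, DNAJC10 and SEC62. The CCAAT box was found in 34.6% of all promoters and in 28 of the 38. TGATGNAA, bound by ATF4 with its partners, was found in 3.62% of all promoters and in HERPUD1 and SRPRB. The palindrome of STAT factors, TTCNNNGAA, was found in 7.66% of all promoters and in 3 of the 38, EDEM2, SEC61G and SPCS3. The RefSeq start lies 3317, 95189, 34247 and 21782 bases from the deposited start of the gene for DNAJB11, SIL1, SSR1 and SRPRB, in that order, so their windows may not belong to the transcripts counted. These are the largest distances, and the next was 763 bases, for SEC61G. Among genes with a printed element it was 467 bases for CRELD2, 303 for HSP90B1 and at most 94 for the rest.

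**Figure D3:**
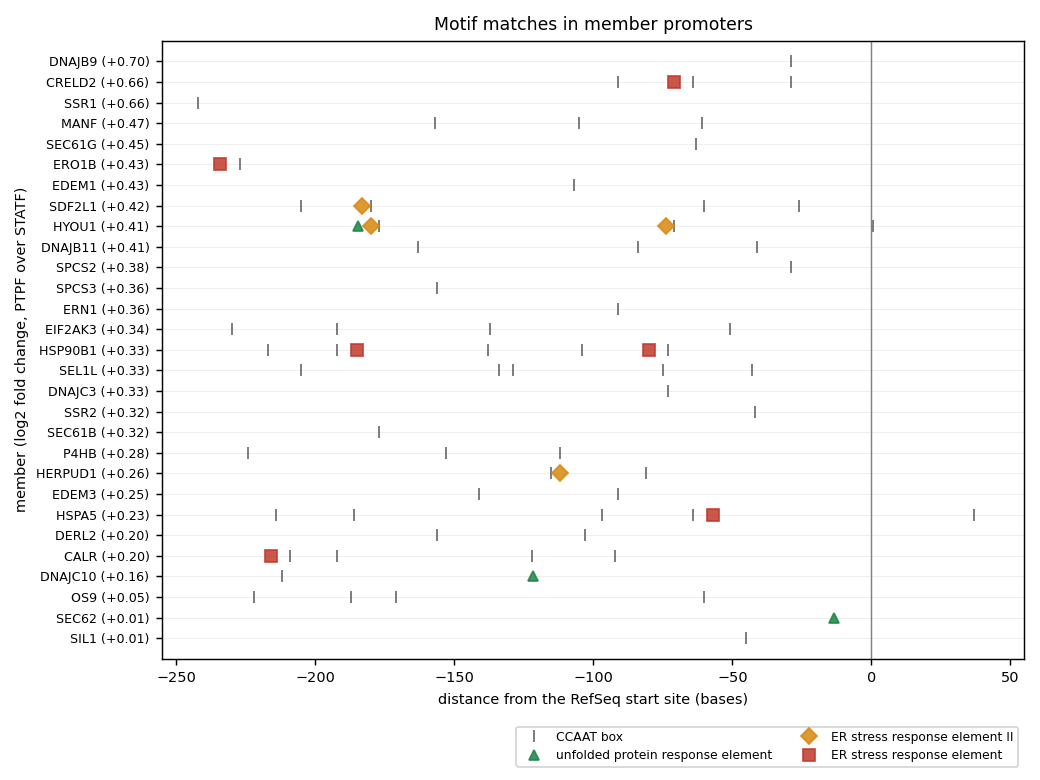
Positions of motif matches in the promoter windows of ER genes, in bases from the RefSeq start, ordered by log2 fold change of PTPF over STATF. Squares and diamonds, the 2 forms of the ER stress response element, mark 8 genes spread from CRELD2 at 0.66 to CALR at 0.20.

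All 6 of the Hsp70, Hsp90 and lectin chaperones rose, with a median log2 fold change of 0.31. HSPA13, an Hsp70-like ATPase of the ER (chr21:14371115-14383484, minus strand), stood at 51.2, 54.4 and 49.6 CPM under PTPF, against 30.7, 31.9 and 33.5 CPM under STATF. Its log2 fold change was 0.69 ± 0.06 (SE, adjusted p = 1.94e-09, edgeR), and the groups lay far apart. HYOU1, a large Hsp70 relative that resets BiP by nucleotide exchange, stood at 625, 620 and 663 CPM under PTPF, against 482, 488 and 465 CPM under STATF (log2 fold change 0.41 ± 0.06, adjusted p = 3.73e-06, edgeR). Here too the lowest PTPF library was above the highest STATF library.

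The other 4 chaperones had higher levels per gene length and smaller log2 fold changes than these, a difference that was not tested. HSP90B1, the ER's Hsp90 (GRP94), stood at 1732, 1637 and 1562 CPM under PTPF, against 1281, 1302 and 1327 CPM under STATF (log2 fold change 0.33, adjusted p = 0.000157, edgeR). HSPA5, which encodes BiP (chr9:125234853-125241330, minus strand), stood at 2021, 1803 and 1802 CPM under PTPF, against 1600, 1619 and 1594 CPM under STATF (log2 fold change 0.23 ± 0.06, adjusted p = 0.00963, edgeR). Replicate 1 of PTPF stood above the other two for BiP, and the call was lost without replicate 1 or replicate 3 of STATF (adjusted p = 0.0501 and 0.0603, edgeR). The lectin CANX, calnexin, stood at 1066, 1083 and 1090 CPM under PTPF, against 866, 893 and 904 CPM under STATF (log2 fold change 0.28, adjusted p = 0.000558, edgeR). Its soluble relative CALR, calreticulin, stood at 1973, 1831 and 1858 CPM under PTPF, against 1669, 1610 and 1666 CPM under STATF (log2 fold change 0.20, adjusted p = 0.0203, edgeR). The CALR call was lost under library totals (adjusted p = 0.0579) and without replicate 1, 2 or 3 of STATF (0.0644, 0.131 and 0.0734, edgeR).

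Of the 7 disulfide isomerases and oxidases, 6 rose (10.1% of all genes tested were called higher) and ERO1A did not pass the test. PDIA4, an isomerase with several thioredoxin folds that works with BiP, stood at 984, 908 and 938 CPM under PTPF, against 710, 677 and 683 CPM under STATF (log2 fold change 0.45 ± 0.06, adjusted p = 1.27e-06, edgeR). ERO1B, an oxidase that recharges the isomerases, stood at 25.3, 25.3 and 28.6 CPM under PTPF, against 19.1, 19.4 and 20.04 CPM under STATF (log2 fold change 0.43 ± 0.07, adjusted p = 4.67e-05, edgeR). Both genes separated the labels in every library. ERO1A, the other oxidase of the pair, stood at 108, 112 and 110 CPM under PTPF, against 111, 107 and 104 CPM under STATF, and the groups overlapped (log2 fold change 0.04, interval -0.07 to 0.15, adjusted p = 0.69, edgeR).

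PDIA5 stood at 96.7, 84.9 and 87.2 CPM under PTPF, against 73.3, 68.2 and 73.3 CPM under STATF (log2 fold change 0.32, adjusted p = 0.000165, edgeR). PDIA3, which pairs with the lectin chaperones to fold glycoproteins, stood at 623, 565 and 550 CPM under PTPF, against 461, 482 and 471 CPM under STATF (log2 fold change 0.30, adjusted p = 0.000445, edgeR). P4HB, the founding disulfide isomerase and also a subunit of prolyl 4-hydroxylase and of the microsomal triglyceride transfer complex, stood at 1497, 1323 and 1479 CPM under PTPF, against 1200, 1180 and 1152 CPM under STATF (log2 fold change 0.28, adjusted p = 0.00124, edgeR). In all 3 genes no PTPF library reached down to the STATF range. PDIA6, an isomerase that also binds BiP, was higher by a log2 fold change of 0.20 (adjusted p = 0.0136, edgeR), and its call was lost under library totals (0.0571) and without replicate 1 or 3 of STATF (0.0847 and 0.0524). Other annotated genes overlap 18.9% of the exon bases of PDIA3 and 25.2% of those of PDIA6, and with no strand setting stated, their reads cannot be told apart.

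The J-proteins and cofactors that steer BiP had the highest median of the 8 groups, 0.41 on the log2 scale. Of the 8 genes, 7 were called higher, against 10.1% of all genes tested. DNAJB9, or ERdj4, which brings BiP to misfolded clients and to the sensor IRE1 (chr7:108569568-108574850, plus strand), stood at 185, 172 and 177 CPM under PTPF, against 104, 109 and 116 CPM under STATF. Its log2 fold change of 0.70 ± 0.06 (SE, adjusted p = 3.18e-10, edgeR) was the highest of the 49. CRELD2, a secreted ER stress protein with EGF-like repeats (chr22:49918167-49927540, plus strand), stood at 150, 123 and 127 CPM under PTPF, against 85.8, 84.6 and 82.7 CPM under STATF (log2 fold change 0.66 ± 0.06, adjusted p = 1.16e-08, edgeR). In both genes the lowest PTPF library was well above the highest STATF library.

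MANF, which binds BiP and slows its release of nucleotide, stood at 150, 122 and 126 CPM under PTPF, against 93.3, 100.3 and 94.7 CPM under STATF (log2 fold change 0.47 ± 0.07, adjusted p = 7.16e-06, edgeR). SDF2L1, the partner of ERdj3, stood at 53.1, 41.9 and 49.6 CPM under PTPF, against 36.0, 35.3 and 36.9 CPM under STATF (log2 fold change 0.42 ± 0.07, adjusted p = 7.76e-05, edgeR). For MANF and CRELD2, replicate 1 of PTPF stood clear above replicates 2 and 3. DNAJB11, ERdj3 itself, was higher by 0.41 (adjusted p = 2.33e-06) and DNAJC3, an inhibitor of PERK and BiP cochaperone, by 0.33 (adjusted p = 2.75e-05, edgeR), both on the log2 scale. Other genes overlap 23.2% of the exon bases of DNAJB11.

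DNAJC10, or ERdj5, a disulfide reductase of ERAD, was higher by 0.16 on the log2 scale (adjusted p = 0.033, edgeR). That call was lost under 7 of 15 alternatives: with no filter on low counts, under library totals, without replicate 2 or 3 of PTPF, and without any of the 3 STATF libraries, with adjusted p between 0.0517 and 0.209. SIL1, a nucleotide exchange factor of BiP, stood at 149, 117 and 127 CPM under PTPF, against 133, 122 and 135 CPM under STATF. The ranges overlapped and no difference was detectable (log2 fold change 0.01, interval -0.14 to 0.16, adjusted p = 0.958, edgeR).

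Of the 10 ERAD genes, 9 were tested, 5 rose, 1 fell and 3 did not pass, and the median log2 fold change was 0.20. Of all genes tested, 10.1% were called higher and 11.6% lower. The 1 call of a fall did not hold in every fit, as given below. EDEM1, which hastens the trimming of mannose from misfolded glycoproteins, stood at 76.0, 76.3 and 74.5 CPM under PTPF, against 56.3, 57.2 and 55.4 CPM under STATF (log2 fold change 0.43 ± 0.05, adjusted p = 9.68e-07, edgeR). SEL1L, the adaptor of the HRD1 ubiquitin ligase, stood at 249, 269 and 261 CPM under PTPF, against 204, 215 and 201 CPM under STATF (log2 fold change 0.33 ± 0.06, adjusted p = 5.19e-05, edgeR). The replicates of each label lay close together for both genes.

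HERPUD1, a membrane scaffold of that ligase, stood at 204, 191 and 185 CPM under PTPF, against 162, 167 and 157 CPM under STATF (log2 fold change 0.26, adjusted p = 0.0011, edgeR). EDEM3, another mannose-trimming protein, stood at 115, 130 and 126 CPM under PTPF, against 101, 107 and 103 CPM under STATF (log2 fold change 0.25, adjusted p = 0.0016, edgeR). DERL2, a rhomboid-like protein of the retrotranslocation channel, was higher by 0.20 (adjusted p = 0.0139, edgeR), a call lost under library totals (0.0988) and without replicate 1 of STATF (0.0959).

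The ERAD gene that fell was EDEM2, which removes the first mannose in this pathway (chr20:35115357-35147364, minus strand). It stood at 81.4, 70.6 and 79.6 CPM under PTPF, against 91.2, 85.7 and 86.2 CPM under STATF (log2 fold change -0.18 ± 0.06, adjusted p = 0.0252, edgeR). Every PTPF library was below every STATF library. The call was lost without replicate 2 of PTPF (adjusted p = 0.179) and without replicate 1, 2 or 3 of STATF (0.14, 0.0547 and 0.0605, edgeR), so the count of ERAD genes that fell was 0 in each of those fits.

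SYVN1, the ubiquitin ligase HRD1, had a log2 fold change of 0.11 with an interval of -0.01 to 0.22 (adjusted p = 0.191, edgeR). OS9, a lectin that reads trimmed glycans, stood at 436, 401 and 434 CPM under PTPF, against 404, 409 and 411 CPM under STATF (log2 fold change 0.05, interval -0.06 to 0.17, adjusted p = 0.562, edgeR). DERL1 had a log2 fold change of -0.02 with an interval of -0.13 to 0.10 (adjusted p = 0.88, edgeR). The groups overlapped for all 3 genes. DERL3 had no read in any of the 6 libraries, which allows up to 0.0735 to 0.0903 CPM per library (3 counts, counting error only), and other genes overlap 77.0% of its exon bases, so reads from that stretch cannot be told apart.

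Of the 3 sensors, IRE1 and PERK are among the 50 genes, and both rose at low levels; ATF6, a sensor that is itself a transcription factor, was lower and is given with the transcription factors. ERN1, or IRE1, whose RNase splices XBP1 mRNA, stood at 40.6, 48.6 and 49.02 CPM under PTPF, against 34.7, 37.7 and 35.6 CPM under STATF (log2 fold change 0.36 ± 0.07, adjusted p = 0.000311, edgeR). EIF2AK3, or PERK, the kinase that slows translation through eIF2, stood at 23.8, 28.4 and 25.6 CPM under PTPF, against 19.8, 20.1 and 21.7 CPM under STATF (log2 fold change 0.34 ± 0.08, adjusted p = 0.00133, edgeR). The groups did not overlap for either gene, and both were lowest in replicate 1 within PTPF. Other genes overlap 15.1% of the exon bases of EIF2AK3. Counts say nothing of the splicing or phosphorylation through which these sensors act.

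At the translocon 9 of 10 genes rose, where 10.1% of all genes tested were called higher. SSR1, the alpha subunit of the TRAP complex that aids entry of some signal peptides (chr6:7268306-7347446, minus strand), stood at 220, 215 and 212 CPM under PTPF, against 130, 142 and 138 CPM under STATF. Its log2 fold change was 0.66 ± 0.05 (SE, adjusted p = 4.99e-10, edgeR), higher than that of the other TRAP subunits. SSR3, the gamma subunit, stood at 147, 141 and 131 CPM under PTPF, against 104, 109 and 107 CPM under STATF (log2 fold change 0.39, adjusted p = 7.44e-06, edgeR). SSR2 and SSR4, the beta and delta subunits, were higher by 0.32 (adjusted p = 0.00016) and 0.26 (adjusted p = 0.00193, edgeR). The difference between SSR1 and the other subunits was not tested.

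All 3 channel subunits rose. SEC61G, the gamma subunit, stood at 67.6, 55.9 and 56.5 CPM under PTPF, against 41.9, 44.9 and 45.1 CPM under STATF (log2 fold change 0.45 ± 0.07, adjusted p = 1.52e-05, edgeR). SEC61A1, which forms the pore, stood at 520, 484 and 513 CPM under PTPF, against 410, 422 and 393 CPM under STATF (log2 fold change 0.31 ± 0.06, adjusted p = 0.000185, edgeR). SEC61B was higher by 0.32 on the log2 scale (adjusted p = 0.000321, edgeR).

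Of the auxiliary factors, SEC63, a J-protein that links BiP to the channel, stood at 98.8, 100.1 and 98.2 CPM under PTPF, against 71.4, 80.1 and 76.5 CPM under STATF (log2 fold change 0.38 ± 0.06, adjusted p = 8.87e-06, edgeR). Its partner SEC62 stood at 109, 117 and 113 CPM under PTPF, against 105, 110 and 121 CPM under STATF, and the ranges overlapped (log2 fold change 0.01, interval -0.11 to 0.13, adjusted p = 0.902, edgeR). TRAM1, a membrane protein beside the channel, was higher by 0.24 (adjusted p = 0.00198, edgeR).

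The receptor of the signal recognition particle has an alpha and a beta subunit. SRPRB, the membrane-anchored beta subunit, stood at 96.5, 83.4 and 85.5 CPM under PTPF, against 67.7, 70.6 and 70.6 CPM under STATF (log2 fold change 0.34 ± 0.06, adjusted p = 8.09e-05, edgeR). Other genes, among them TF, overlap 21.1% of its exon bases, and TF itself was lower under PTPF (log2 fold change -0.38). SRPRA, the alpha subunit, stood at 267, 254 and 256 CPM under PTPF, against 239, 238 and 225 CPM under STATF (log2 fold change 0.15 ± 0.05, adjusted p = 0.0531, edgeR). Its groups did not overlap, and it passed the threshold under 6 of 15 alternatives, so the count of receptor genes that rose was 1 or 2 depending on the fit.

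Of the 5 signal peptidase genes, 3 rose, where 10.1% of all genes tested were called higher. SPCS2, an accessory subunit, stood at 68.2, 62.2 and 71.4 CPM under PTPF, against 52.1, 50.2 and 52.6 CPM under STATF (log2 fold change 0.38 ± 0.06, adjusted p = 2.36e-05, edgeR). SPCS3, which the catalytic unit needs, stood at 121, 117 and 115 CPM under PTPF, against 90.8, 90.4 and 93.1 CPM under STATF (log2 fold change 0.36 ± 0.05, adjusted p = 8.75e-06, edgeR). SEC11C, a catalytic subunit, stood at 80.8, 68.1 and 73.4 CPM under PTPF, against 55.3, 55.7 and 63.9 CPM under STATF (log2 fold change 0.35 ± 0.07, adjusted p = 0.000393, edgeR). In all 3 the labels separated. The alternative catalytic subunit SEC11A had a log2 fold change of 0.09 with an interval of -0.03 to 0.22 (adjusted p = 0.324, edgeR). SPCS1 had -0.03 with an interval of -0.16 to 0.10 (adjusted p = 0.83, edgeR), and GLT8D1 and NEK4 overlap 58.1% of its exon bases. Among named pseudogene copies of the 50 genes, SPCS2P4 held the largest share, with reads equal to 8.85% of those of SPCS2.

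Several of these genes come in related forms that were read side by side in each library. These pairs were picked after the values were seen and carry no test. EDEM1 had 93.5, 108 and 93.6 reads per 100 reads of EDEM2 under PTPF, against 61.7, 66.7 and 64.2 under STATF. ERO1B had 23.4, 22.5 and 26.0 reads per 100 of ERO1A under PTPF, against 17.3, 18.2 and 19.2 under STATF. SEC63 had 90.9, 85.2 and 87.1 reads per 100 of SEC62 under PTPF, against 67.9, 73.2 and 63.3 under STATF. For each pair the ratio was higher in every PTPF library than in any STATF library. The same held for EDEM3 to EDEM2, DERL2 to DERL1 and SEC11C to SEC11A, with mean log2 ratios that were higher by 0.44, 0.22 and 0.25.

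Between genes, levels can be compared only per gene length, as length-scaled abundance (TPM) computed here from the counts and the deposited lengths. CALR, HSPA5 and HSP90B1 led, at 1704 ± 12.9, 1175 ± 38.5 and 858 ± 23.9 TPM under PTPF (SD, n = 3) and 1555 ± 43.0, 1051 ± 24.0 and 711 ± 0.976 TPM under STATF. PDIA4 at 705 ± 10.2 TPM under PTPF and 539 ± 22.5 TPM under STATF, and P4HB at 662 ± 35.9 TPM under PTPF and 569 ± 22.3 TPM under STATF, followed. DNAJB9 reached 154 ± 1.80 TPM under PTPF and 99.1 ± 3.64 TPM under STATF. The lowest levels were those of ERN1, EIF2AK3 and ERO1B, at 10.4 ± 1.39, 11.7 ± 1.39 and 12.1 ± 1.13 TPM under PTPF, against 8.48 ± 0.362, 9.66 ± 0.302 and 9.32 ± 0.0583 TPM under STATF. Counts behind the tested genes ran from 718 to 67423 reads per library.

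**Figure D4:**
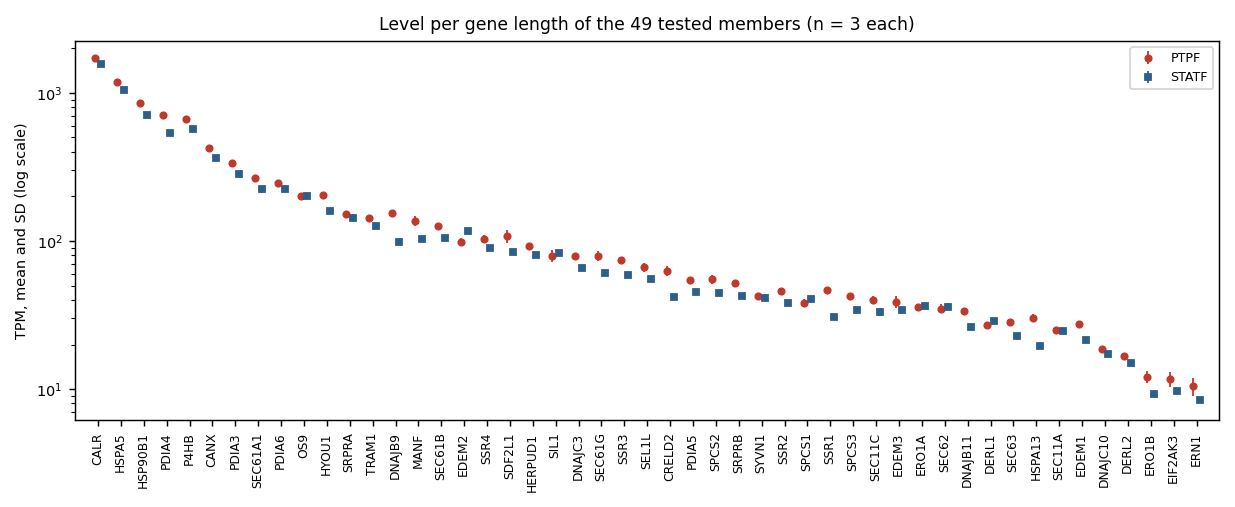
Mean TPM and SD of the 49 tested ER genes on a log axis, ordered by level, with PTPF as circles left of STATF as squares (n = 3 each). CALR leads at 1704 TPM under PTPF and 1555 TPM under STATF, and ERN1 is last at 10.4 TPM under PTPF and 8.48 TPM under STATF.

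Summed over all 50 genes, the level was 16372, 15277 and 15583 CPM under PTPF, against 12926, 12989 and 13002 CPM under STATF, a ratio of 1.21. The genes took 1.52 to 1.56% of all counts under PTPF and 1.32 to 1.33% under STATF. By role, the ratio was highest for the J-proteins and BiP cofactors at 1.30, then the sensors at 1.27, the translocon at 1.26 and the disulfide isomerases at 1.24. It was lowest for ERAD at 1.11 and the signal recognition particle receptor at 1.15.

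**Figure D5:**
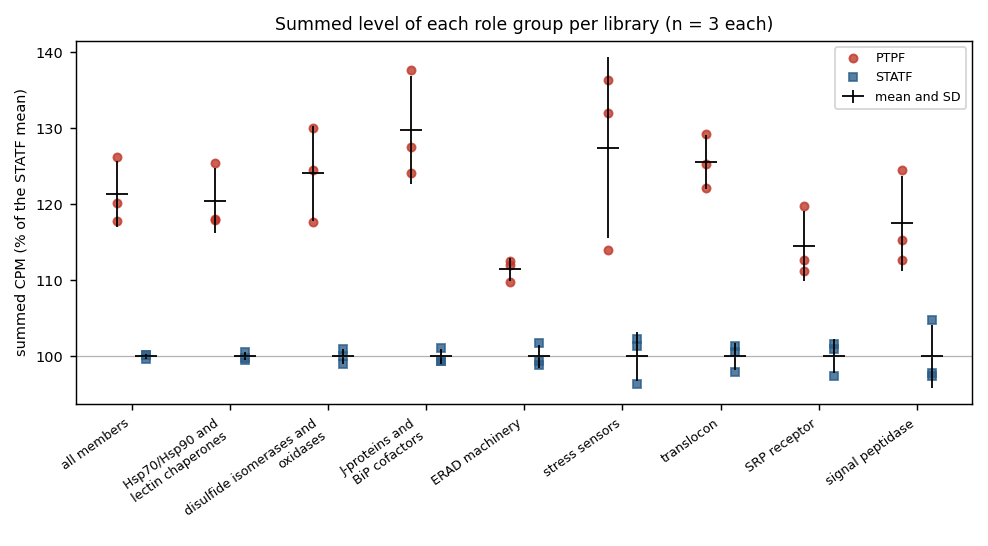
Summed CPM of each role group per library, as a percentage of its mean in the STATF libraries (points), with mean and SD (bars, n = 3 each). Every PTPF point lies above every STATF point in all 8 groups, from 110% to 138% for PTPF.

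Further genes of the pathway outside the 50 were checked in 9 lists of 92 genes. Of 89 tested, 31 passed the test upwards and 6 downwards, and their median on the log2 scale was 0.08. Of all genes tested, 10.1% were called higher and 11.6% lower. PDIA2, QSOX1 and FKBP10 were under the filter. Under library totals the counts were 17 higher and 13 lower, so the split of these lists depends on the scaling. The split of all genes moved too, to 1164 higher and 2981 lower under library totals, from 1801 and 2062.

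The enzymes that add N-glycans at the translocon, the oligosaccharyltransferase, had 6 of 12 genes higher and 1 lower, TUSC3 at -0.17 (adjusted p = 0.0257, edgeR), a call lost without replicate 2 or 3 of PTPF or any STATF library. OSTC, a subunit that ties the STT3A form to the channel, stood at 86.5, 78.9 and 79.2 CPM under PTPF, against 55.3, 57.3 and 59.8 CPM under STATF (log2 fold change 0.50, adjusted p = 1.6e-07, edgeR). STT3B, a catalytic subunit, stood at 238, 244 and 248 CPM under PTPF, against 177, 183 and 178 CPM under STATF (log2 fold change 0.44, adjusted p = 4.28e-07, edgeR). The COPII coat, which carries cargo out of the ER, had 7 of 12 genes higher and none lower, but 4 higher under library totals and without replicate 3 of STATF. Its cargo adaptors SEC24D and SEC24A were higher by 0.48 (adjusted p = 8.86e-08) and 0.29 (adjusted p = 0.000297, edgeR).

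The other ERAD factors had 6 of 19 higher and 1 lower, ERLIN2 at -0.15 (adjusted p = 0.0445, edgeR). Without replicate 1 or 2 of STATF 3 were higher, and under library totals 1 was higher and 3 lower. The number lower was 3 without replicate 1 of PTPF and 0 without any other single library. UBE2J1, the ubiquitin-conjugating enzyme of the HRD1 ligase, stood at 74.6, 67.1 and 70.2 CPM under PTPF, against 46.3, 49.9 and 46.9 CPM under STATF (log2 fold change 0.57, adjusted p = 3.34e-08, edgeR). UBE2G2, another such enzyme, was higher by 0.20 (adjusted p = 0.00907, edgeR), a call lost under library totals (0.0874) and without replicate 1 of STATF (0.0649). Of the 8 transcription factors behind the stress response, 3 were higher and 2 lower, where 10.1% and 11.6% of all genes tested were. ATF6, the sensor that binds the CCACG part of the element, stood at 72.6, 78.8 and 73.9 CPM under PTPF, against 90.03, 86.0 and 83.7 CPM under STATF, with every PTPF library below every STATF library. Its log2 fold change was -0.20 ± 0.06 (SE, adjusted p = 0.00863, edgeR), a call lost without replicate 1 of STATF (0.0705). NFYC, a subunit of NF-Y, was lower at -0.19 (adjusted p = 0.0424, edgeR), a call lost under 8 of 15 alternatives. XBP1, spliced by IRE1, stood at 460, 397 and 423 CPM under PTPF, against 307, 320 and 330 CPM under STATF (log2 fold change 0.42, adjusted p = 6.89e-06, edgeR). ATF4, translated when PERK is active, was higher by 0.34 (adjusted p = 5.73e-05), and DDIT3, a stress factor downstream of ATF4, by 0.34 (adjusted p = 0.00251, edgeR). Other genes overlap 39.6% of the exon bases of DDIT3, and with no strand setting stated, their reads cannot be told apart. The count of lower factors was 0 without replicate 1 of STATF, and 1 without replicate 2 or 3 of STATF or replicate 1 or 3 of PTPF. ATF6, NFYC and DDIT3, and likewise SRP68, TUSC3, ERLIN2 and EMC7, were named after their values were seen.

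None of the 9 genes of the ER membrane protein complex, an insertase, was called in the main edgeR fit, by DESeq2 or by limma-voom. EMC7 alone had an unadjusted p under 0.05 in the main fit (0.0338, edgeR). Under library totals, and without replicate 1 of PTPF, 2 of the 9 were called lower. The signal recognition particle had 3 of 6 higher and none lower: SRP19 at 0.50 (adjusted p = 0.000209), SRP72 at 0.27 (adjusted p = 0.000576) and SRP68 at 0.15 (adjusted p = 0.0497, edgeR). The SRP68 call was lost under 10 of 15 alternatives, and other genes overlap 18.2% of the exon bases of SRP19. The ER prolyl isomerases had 4 of 6 tested higher and 1 lower, with FKBP11 higher by 0.47 (adjusted p = 3.38e-06) and FKBP9 at -0.37 (adjusted p = 9.91e-06, edgeR), but 2 were higher under library totals and without replicate 2 of STATF. Of 11 other disulfide isomerases tested, 2 were higher, TMX3 at 0.22 (adjusted p = 0.01) and ERP44 at 0.19 (adjusted p = 0.0168, edgeR). Under library totals and without replicate 1 of STATF neither was called, and ERP44 was also lost without replicate 1 of PTPF (0.0591) or replicate 2 of STATF (0.0635). Of 6 genes of glycan trimming and glucose sensing, MAN1B1, a mannosidase, was called lower at -0.15 (adjusted p = 0.0456, edgeR), and that call was lost under 8 of 15 alternatives.

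Markers of the cell types that HepaRG cultures or liver could hold also moved between the labels. Of all genes tested, 10.1% were called higher and 11.6% lower. The 12 hepatocyte markers summed to 20268 to 23046 CPM under PTPF, against 25733 to 26999 CPM under STATF, with 1 higher, ASGR1, and 5 lower: ALB, APOA1, TF, CYP3A4 and SLC10A1. ALB held the largest part of that sum. The other 6 were not called, among them CYP2E1 at 0.72 and HNF4A at -0.14, whose groups did not overlap, and APOB at -0.001. The 8 biliary and progenitor markers summed to 302 to 337 CPM under PTPF and 290 to 308 CPM under STATF, with CD24 higher, KRT19 and SOX9 lower, and EPCAM at 0 in every library. The 9 mesenchymal and stellate markers summed to 62.1 to 76.6 CPM under PTPF and 62.2 to 81.0 CPM under STATF, with ACTA2 lower. The 6 endothelial markers summed to 33.6 to 39.8 CPM under PTPF and 57.9 to 61.5 CPM under STATF, with KDR lower. KDR alone held 35.8 CPM under PTPF and 57.6 CPM under STATF, so it made up nearly all of the sum. PECAM1 and STAB2 were not called, and the remaining 3 were under the filter. The 8 immune markers summed to 14.4 to 17.5 CPM under PTPF and 9.67 to 11.4 CPM under STATF. CD14 was higher, and CD3E was at 0 in every library. CD14 alone held 14.2 CPM under PTPF and 8.14 CPM under STATF, so it made up most of the sum. The other 2 tested, CD163 and MARCO, had log2 fold changes of -0.375 and -0.61 and were not called. The remaining 5 were under the filter. The hepatocyte markers are those of the labelled cell type. They ran from 4.34 CPM for SLC10A1 to 12006 CPM for ALB under PTPF, and from 11.8 CPM for SLC10A1 to 14867 CPM for ALB under STATF. The part of these shifts in the ER gene differences was not tested.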

How the data were processed

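The 6 HepaRG libraries were grouped by their titles, 3 as PTPF and 3 as STATF. Poly-T beads captured the RNA and random hexamers primed the cDNA, per the labels' protocols. CASAVA 1.8, HISAT2 2.0.5, featureCounts 1.5.0-p3 and the build GRCh38 are named in the submitters' processing notes. Which annotation release, strand setting and rule for multi-mapping reads applied was not given in the sources used here. Raw counts per gene, without normalization, were deposited by the authors in 1 table, which also gives each gene's position and its length, an other unit, in bases. Every row names a gene.

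After filterByExpr, libraries were scaled by TMM, with factors between 0.953 and 1.03. The test was edgeR 4.0.16 in R 4.3.3 (glmQLFit, robust, then glmQLFTest on the label alone). P-values were adjusted by Benjamini-Hochberg over all genes tested, with a threshold of 0.05, and intervals are at 95%. CPM are the counts after TMM scaling, and TPM divide the counts by the deposited lengths. Between 33225627 and 40796767 reads were counted in a library, so that 0 reads allow up to 3, or 0.0735 to 0.0903 CPM. This floor is for counting error alone, as PCR copies were not marked by molecular identifiers. Exon overlaps used the reference annotation, and promoters used RefSeq. Replicates differed by more than sampling noise, with chi-square values of 4.35 to 12.2 per degree of freedom, and each counts as 1.

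The members, role groups, lists and tests were chosen with earlier results of these data known. Values in every library are given for the called members with the 4 largest log2 fold changes of each role group and for the member with the highest level per length. Up to 2 called genes of each pathway list with the smallest adjusted p are named. Genes outside this rule were named after their values were seen. The scripts were tested on simulated data. The alternatives were 3 other scalings (RLE, upper quartile and library totals), 2 other filters, DESeq2 1.42.0, limma-voom (limma 3.58.1), a block on the replicate number, no mitochondrial genes, and each library left out. Exact permutation tests of the siRNA targets were run with scipy 1.17.1 in Python 3.11.15, and the smallest p that 3 against 3 allows is 0.1, which STAT3 reached.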

Additional observations from a re-analysis of the deposited data

How the results depend on the processing

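Of the 40 ER genes called, 34 were called under all 15 alternatives, 6 lost the call under at least 1 (HSPA5, CALR, PDIA6, DNAJC10, EDEM2 and DERL2), and none of the 40 changed direction. The number of ER genes called higher ran from 34 to 39 when 1 library was left out, was 40 by DESeq2, limma-voom and the replicate block, and 35 under library totals. The number called lower ran from 0 to 1 without 1 library, being 0 without replicate 2 of PTPF or any STATF library, and the same held for ERAD. For the receptor of the signal recognition particle, 2 genes were called higher with at least 50 counts in 3 libraries, upper-quartile scaling, DESeq2, limma-voom and the replicate block, and 1 to 2 without 1 library. Over all genes, 1164 were called higher under library totals. Pathway genes called higher were 17 under library totals. Pathway genes called lower were 13 under library totals, 3 with no filter on low counts, 3 under upper-quartile scaling, and 1 to 10 without 1 library, with 10 without replicate 1 of PTPF and 1 without replicate 1 of STATF.

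Genes that were not called changed sign in some fits. Under library totals the log2 fold change was -0.0265 for ERO1A, -0.0581 for SIL1, -0.0105 for OS9, -0.0477 for SEC62 and -0.0612 for PTPRD. PTPRD was at -0.0058 with no filter, -0.0038 by limma-voom and -0.0032 with the replicate block. Leaving out 1 library gave -0.0924 to 0.0916 for SIL1, -0.04 to 0.0064 for DERL1, -0.0274 to 0.0738 for SEC62, -0.1026 to 0.0281 for SPCS1 and -0.0757 to 0.0893 for PTPRD. The cause was not tested.

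Libraries with the same replicate number deviated together with correlations of 0.035, 0.058 and 0.001, and those with different numbers with -0.07 to 0.033. All of these were small, and they cannot decide whether the numbers pair the libraries. With the replicate block, 4145 genes were called, against 3863 without it, and the libraries numbered 3 did not correlate best with each other. Small differences are limited by the 3 libraries per group, and genes under the filter by depth.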
